A study of Mus musculus with 20 samples.

Results

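Igtp, Irgm1, Irgm2, Gbp2, Gbp3, Gbp6, Gbp7, Irf1 and Cd274 are 9 of the 23284 genes measured in a series of 20 mouse hearts. They were chosen by name, as the interferon-gamma GTPases and partners of that pathway whose level in 1 heart stood far above the other 19. That heart, number 41, was a CKO heart taken 4 weeks after aortic constriction. Because heart 41 chose the genes, its values are given here as a description with no test, and tests were made on the other 19 hearts. All 9 genes were found in every heart's table, and all 9 passed the filter for low values, a mean of at least 0.5 FPKM over those 19 hearts. FPKM counts sequenced fragments relative to transcript length and to the size of the library.

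The mice were C57BL/6. Controls carried Wnt5a floxed alleles and no Cre; CKO mice carried Wnt5a floxed alleles with Myh6-Cre/Esr 1, a tamoxifen-activated Cre driven by a heart-muscle promoter, so that cells other than heart muscle should keep the gene. For both genotypes, hearts were taken when tamoxifen treatment ended, with no operation, and 2 or 4 weeks after surgery, which was either a sham procedure or TAC (transverse constriction of the aorta, which loads the left ventricle). The 10 groups held 2 hearts each, named here by the number in their label, and age and sex are not given. Control hearts were 22 and 23 (end of tamoxifen), 12 and 16 (sham, 2 weeks), 6 and 7 (sham, 4 weeks), 11 and 32 (TAC, 2 weeks), and 1 and 2 (TAC, 4 weeks). CKO hearts were 21 and 24, 14 and 15, 4 and 8, 13 and 31, and 3 and 41 in the same order of groups. Esr1, which the transgene adds to, was 197 to 931 FPKM in the 10 CKO hearts and 0.101 to 0.465 in the 10 controls. Wnt5a overlapped between genotypes, at 0.853 to 2.33 FPKM in CKO and 1.58 to 4.11 in control hearts, and heart 41 had the lowest value. Heart muscle markers were high in each heart (Myl2, 27350 to 41365 FPKM). Hearts 11, 14, 16, 21 and 24 held the atrial gene Myl7 at 10 FPKM or more, and heart 41 listed it at 0.

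Interferon-gamma is a cytokine made mainly by T cells and natural killer cells. It binds a receptor built from Ifngr1 and Ifngr2, whose kinases Jak1 and Jak2 signal to GAS elements in the DNA and induce Irf1. Irf1 binds a further element, the ISRE, and many target genes carry either element or both. Among those targets are the immunity-related GTPases (IRG) and the guanylate-binding proteins (GBP), which act against microbes inside cells, and Cd274 (PD-L1), a surface ligand that restrains T cells through PD-1.

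The 250 bases before the start of each member were searched for both elements, since the 9 genes are known interferon targets. RefSeq promoter sequences of GRCm38.p6 were found for 8 members; Gbp6 is named only. The GAS was searched as TTCNNNGAA and the core of the ISRE as GAAA, NN and GAAA in a row, both on either strand. The windows below run 5′ to 3′ on the gene's strand, and capitals mark the matches.
Igtp: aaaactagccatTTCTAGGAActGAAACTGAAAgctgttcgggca
Irgm2: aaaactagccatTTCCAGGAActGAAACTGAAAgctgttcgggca
Irgm1: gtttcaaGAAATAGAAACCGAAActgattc
Gbp2: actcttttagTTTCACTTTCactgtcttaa
Gbp3: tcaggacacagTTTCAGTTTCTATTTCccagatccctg
Gbp7: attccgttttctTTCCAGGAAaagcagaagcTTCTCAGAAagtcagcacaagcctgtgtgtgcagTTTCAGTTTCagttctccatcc
Irf1: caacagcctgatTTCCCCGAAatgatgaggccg

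The windows lie at chr11:58199499-58199543 (Igtp, plus strand), chr11:58214890-58214934 (Irgm2, plus), chr11:48871428-48871457 (Irgm1, minus), chr3:142620594-142620623 (Gbp2, plus), chr3:142559988-142560025 (Gbp3, plus), chr3:142530218-142530304 (Gbp7, plus) and chr11:53769912-53769944 (Irf1, plus). The Irgm1 window overlaps an annotated exon of GENCODE M21, the Gbp2 window spans the start of its gene model at 142620602, the Irgm2 window lies inside the bounds of its gene model but in no exon, and the other 4 lie before the gene model. Igtp and Irgm2 share their 45-base window except for T16C, counted from 1 at the 5′ end with the Igtp base first. In both, 2 bases part the GAS from the ISRE core. Irgm1 and Gbp3 each hold 2 overlapping matches to the ISRE core, and Gbp7 holds 2 GAS matches before 1 ISRE core. Gbp3 and Irf1 each have a second tabled promoter without a match, and no match was found for Cd274, which says only that these letters are not in that window.

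Among the 8 members with a promoter, 4 held a GAS match, against 8.13% of 27025 genes. The ISRE core was found in 6, against 3.46% of genes, and both elements in 3, against 0.459%. A match is a description of the letters and not of a bound site.

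**Figure D1:**
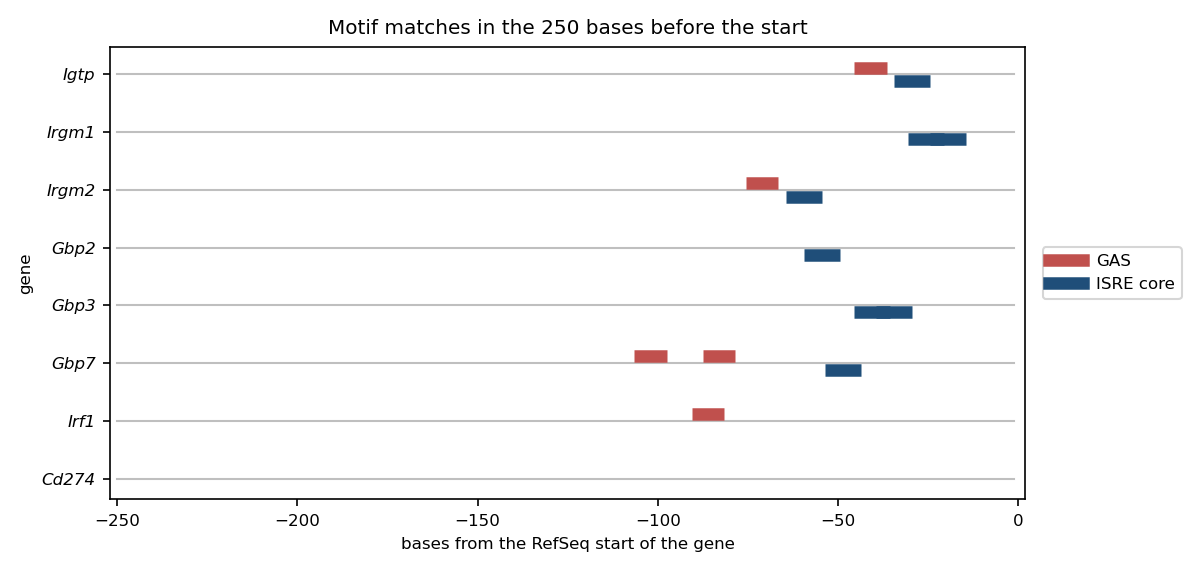
Positions of GAS (red) and ISRE core (blue) matches in the 250 bases before the RefSeq start of 8 members, in bases from the start. Every match lies between −106 and −15, and Cd274 has none; the second promoters of Gbp3 and Irf1, without a match, are not drawn.

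Igtp, Irgm1 and Irgm2 belong to the IRGM branch of the IRG family, which regulates the effector IRG proteins and protects the cell's own membranes from them. Igtp (chromosome 11, 58199556 to 58207591, plus strand, mm10) was the member that stood apart most. It measured 623 FPKM in heart 41. Over the other 19 hearts its lowest value was 7.77, its median 14.0 and its highest 31.2, in heart 24, so heart 41 was 19.98-fold above the next heart and 44.3-fold above the median. Heart 3, of the same genotype, operation and time, had 9.89 FPKM, inside the range of the other groups.

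Irgm2 (chromosome 11, 58199618 to 58222782, plus strand) was 178 FPKM in heart 41, against 6.09, 10.7 and 16.4 as the lowest, median and highest of the others. Its gene model overlaps that of Igtp on the same strand, and 11.8% of the 50-base stretches of Igtp transcripts also occur in Irgm2, so that reads could be shared between them. Irgm1 (chromosome 11, 48861968 to 48871683, minus strand) was 218 FPKM in heart 41, against 11.6, 16.0 and 23.1 in the others. The lowest of those 19 values was in heart 3. Heart 41 was thus 10.9-fold above the next heart for Irgm2 and 9.45-fold for Irgm1, with no overlap.

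Gbp2, Gbp3 and Gbp7 lie in the GBP cluster of chromosome 3 and Gbp6 in that of chromosome 5. GBP proteins are large GTPases that assemble on membranes around microbes. Gbp2 (142620602 to 142638008) was 86.9 FPKM in heart 41 and 9.27, 13.1 and 20.2 as lowest, median and highest of the others. Gbp3 (142560026 to 142573209) was 66.5 against 4.75, 8.90 and 14.9. Gbp7 (142530342 to 142550149) was 35.6 against 3.50, 5.59 and 8.12. Heart 41 stood 4.30-fold, 4.47-fold and 4.38-fold above the next heart for these 3 genes, ratios close to each other.

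Gbp6 (chromosome 5, 105270702 to 105293698, minus strand) was 71.2 FPKM in heart 41, against 3.85, 6.12 and 9.74 in the others, 7.31-fold above the next heart. Its value is uncertain, because 49.9% of its 50-base stretches occur in another gene of the tables, most of them (45.9%) in Gbp10. Gbp10 itself was 20.8 FPKM in heart 41 and at most 1.10 in the others.

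Irf1 (chromosome 11, 53770014 to 53778374, plus strand), the transcription factor of the set, stood apart least. It was 55.6 FPKM in heart 41, and 11.4, 18.7 and 26.7 as the lowest, median and highest of the others, so heart 41 was 2.08-fold above the next heart. Cd274 (chromosome 19, 29367455 to 29388095, plus strand) was 43.5 FPKM in heart 41 against 3.06, 4.39 and 8.62, which is 5.05-fold above the next heart. Cd274 is a target of the pathway and not one of its regulators. Gbp2, Irf1 and Cd274 each overlap an annotated RNA gene on the other strand; the library kit keeps strand, but no source used here says whether counting used it.

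**Figure D2:**
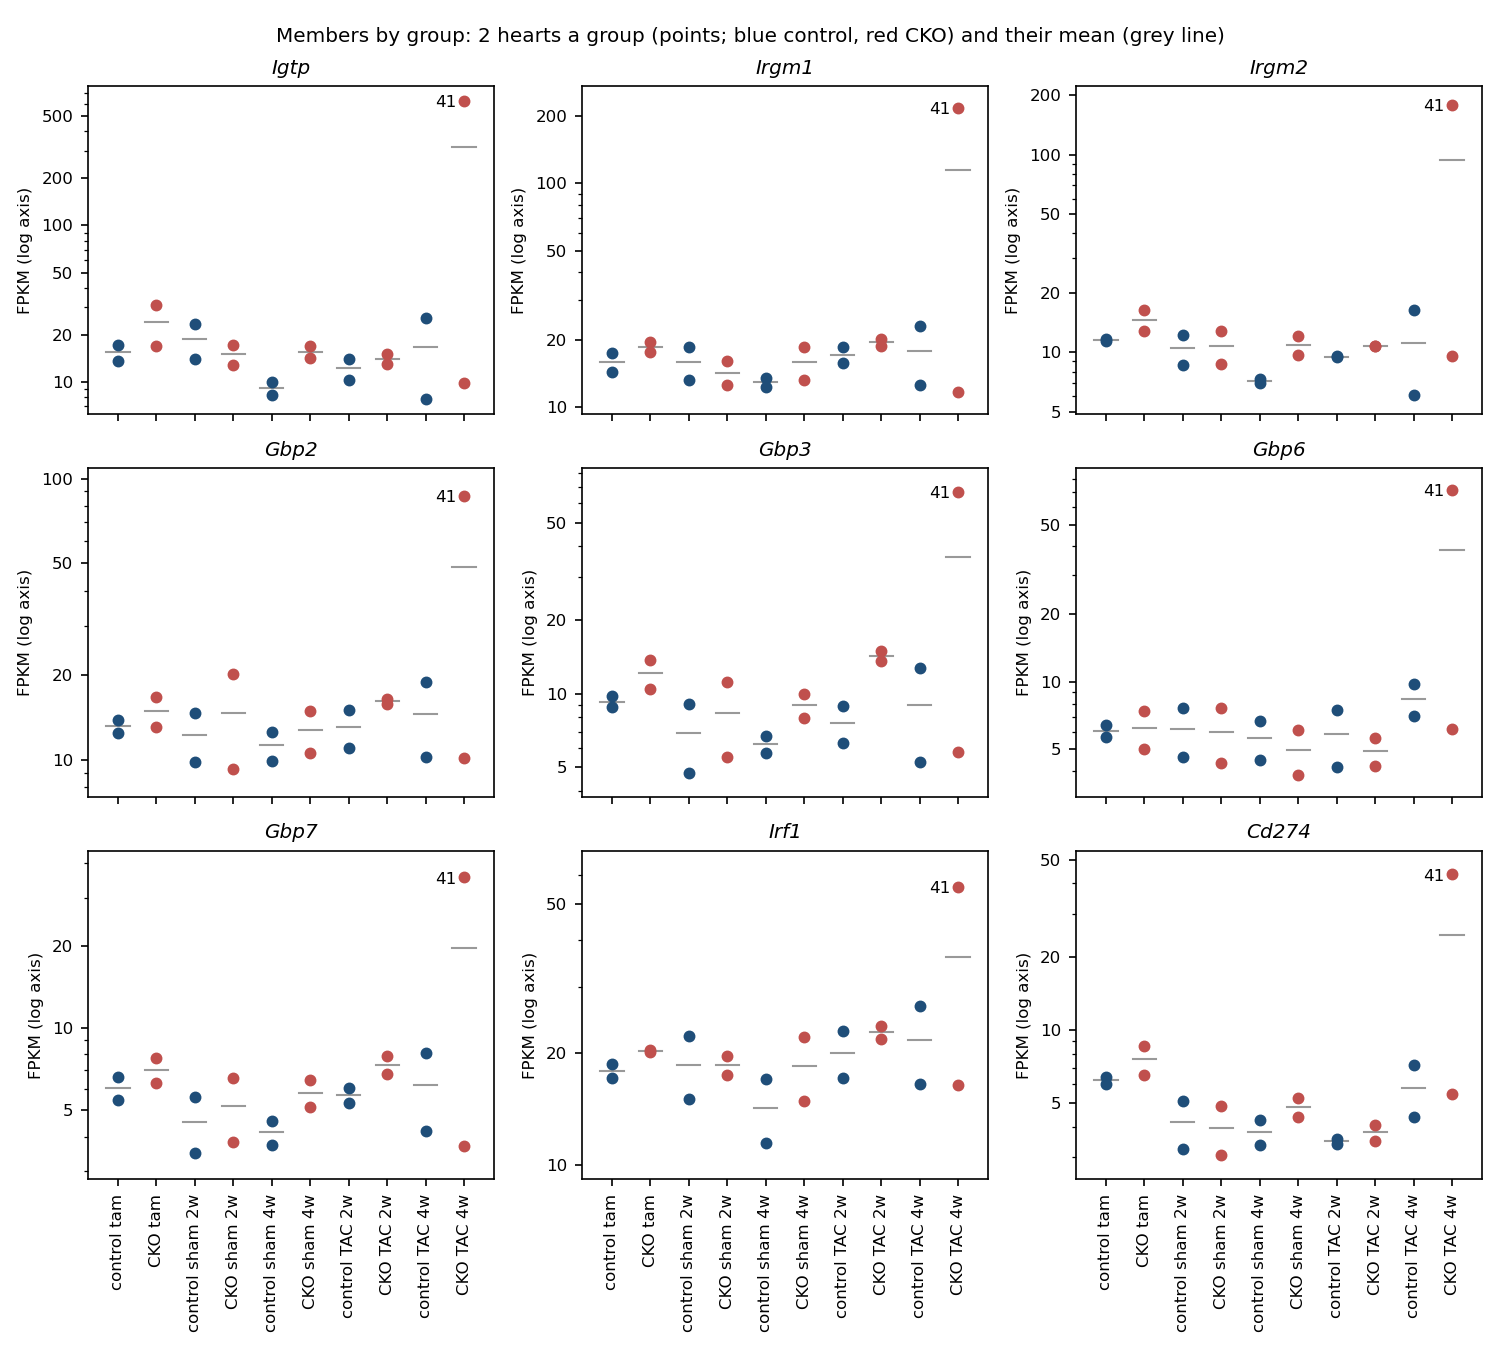
FPKM of the 9 members (log axis) in both hearts of each of 10 groups, control in blue and CKO in red, with the group mean as a grey line; tam is the end of tamoxifen, w is weeks. Heart 41 lies above every other heart in all 9 panels, while heart 3 of the same group lies among the rest, so the mean of that group lies far from both of its hearts.

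Across the 9 members heart 41 was 2.98-fold to 44.3-fold above the median of the other 19 hearts, with 9.91-fold as the median member. Of 12593 genes, heart 41 was at least 2-fold above each other heart in 53 (0.421%), and all 9 members, chosen for it, were among them. It was the highest heart by any margin in 422 genes (3.35%), a number that other hearts also reach: heart 31 was highest in 1587. Heart 41 was at least 2-fold below each other heart in 6 genes (0.0476%), none of them a member. Over all genes, heart 41 differed from the median of the others by 0.00 on the log2 scale, with quartiles of −0.12 and 0.11. Its relative depth was 0.970, within the range of 0.889 to 1.22 over the hearts.

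A mean over the 2 CKO hearts 4 weeks after TAC therefore describes neither. Against the mean of CKO sham hearts at 4 weeks, heart 41 was 1.60 to 5.29 higher over the members (log2 of FPKM + 0.5), and heart 3 was between −0.62 and 0.31. Against the mean of control TAC hearts at 4 weeks, the difference was 1.38 to 5.41 in heart 41 and −0.60 to −0.05 in heart 3. All 9 members were thus below the control TAC mean in heart 3 and above it in heart 41. That mean joins 2 unlike hearts, and heart 3 was below heart 2 for every member. Against heart 1, heart 3 was higher for Igtp (9.89 against 7.77 FPKM), Irgm2 (9.55 against 6.09), Gbp3 (5.79 against 5.24) and Cd274 (5.45 against 4.39). For the other members it was lower than heart 1. The pressure-load genes also differed between these hearts: the hormone gene Nppa was 454 FPKM in heart 41 and 1041 in heart 3, Acta1 was 1007 and 1759, and the matrix gene Postn was 23.5 and 44.6. In CKO sham hearts at 4 weeks Nppa was 179 and 190 FPKM, Acta1 132 and 229, and Postn 21.5 and 22.3. In control TAC hearts at 4 weeks Nppa was 3547 and 2761 FPKM, Acta1 2193 and 2883, and Postn 128 and 119. The part of load in the members' levels was not tested.

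The rest of the pathway in heart 41 is described from lists of genes by role, taken as counts with no test, since their levels come from the heart that chose the members. Each list is read as log2(FPKM + 0.5) in heart 41 minus the median of the other 19. The 9 members had a median difference of 3.17. Interferon genes themselves were at 0 or close to it. Ifng was listed at 0 in heart 41 and above 0 in 1 of the 20 hearts (0.114 FPKM, heart 31), and Ifnb1 was listed at 0 in all 20. Of 15 ligands and inducers, 10 were at 0 in heart 41. Each of these 10 was also at 0 in at least 17 of the other 19 hearts, so a difference between hearts cannot be read from them. Of the 3 ligands and inducers that passed the filter (Il15, Il18 and Tnf), heart 41 was highest in none, with a median of −0.29. None of 6 receptor genes was highest there (median −0.04). Ifngr1 was 40.0 FPKM in heart 41 and 41.7 as the median of the others, and Ifngr2 was 114 and 117.

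Among 10 kinases and transcription factors, heart 41 was highest in 6 and at least 2-fold above each other heart in 3 (median 0.98). Batf2, which partners Irf1 in macrophages and was among those 3, was 12.0 FPKM against 0.589 to 1.86, and Nlrc5, the activator of MHC class I genes, was 8.84 against 0.410 to 2.29. The kinases were close to the other hearts: Jak1 was 33.7 FPKM against a median of 35.3, and Jak2 9.25 against 7.73. For Jak2 this was the highest heart, just above the 9.15 FPKM of the next. Of 10 inhibitors heart 41 was highest in 2, Socs1 (4.03 against at most 2.03), which blocks the Jak kinases, and Usp18 (11.6 against at most 8.38), and at least 2-fold above in none (median 0.15). Ptpn6, a phosphatase, was 5.53 FPKM, within the 1.69 to 6.52 of the others.

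The relatives of the members stood apart with them. In 7 of 9 other IRG genes heart 41 was at least 2-fold above each other heart (median 3.06). The effector Iigp1 was 473 FPKM against 15.2 to 43.6, F830016B08Rik 293 against 1.03 to 11.3, and Gm12250 39.5 against 0.238 to 3.04. The same held for 3 of 3 other GBP genes (median 2.43), with Gbp4 at 43.9 against at most 10.7, Gbp5 at 28.5 against at most 7.21, and Gbp9 at 20.4 against at most 9.87. Gbp1, Gbp8, Gbp10 and Gbp11 did not pass the filter because they were low in the 19 hearts.

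Antigen presentation formed the other large set. All 14 genes of MHC class I loading were highest in heart 41, 10 of them by at least 2-fold (median 1.65). The peptide transporter Tap1 was 40.9 FPKM against at most 10.2, the immunoproteasome subunit Psmb9 89.6 against at most 29.4, and H2-K1 784 against at most 218. For MHC class II, 6 of 7 genes were at least 2-fold above each other heart (median 2.26). H2-Ab1 was 239 FPKM against at most 91.5, H2-Eb1 198 against at most 82.1, and the invariant chain Cd74 541 against at most 185. Of 3 chemokines all were highest, and Cxcl9, which attracts T cells, was 35.2 against at most 7.26; Cxcl10 was 8.84 against at most 6.00 and Ccl5 6.74 against at most 5.55.

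Genes of the type I interferon response were high in heart 41 by smaller margins. Heart 41 was highest in 17 of 22 and at least 2-fold above in 3 (median 1.21). Zbp1, a sensor of nucleic acids, was 13.8 FPKM against at most 5.08, Xaf1 13.7 against at most 6.57, and Irf7 45.1 against at most 30.7. None of 3 tested checkpoint genes (Ctla4, Cd80 and Cd86) was highest (median −0.03). Ctla4 was 1.34 FPKM against a median of 1.38. The rest of the checkpoint list was too low in the other hearts to pass the filter. Of these, Ido1 was 5.75 FPKM in heart 41 against at most 1.04, and Pdcd1 0.237 against at most 0.147. Lag3 was 0.151 against a median of 0.294, and Pdcd1lg2 was at 0. Summed over all 7 genes, the list was highest in heart 41.

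**Figure D3:**
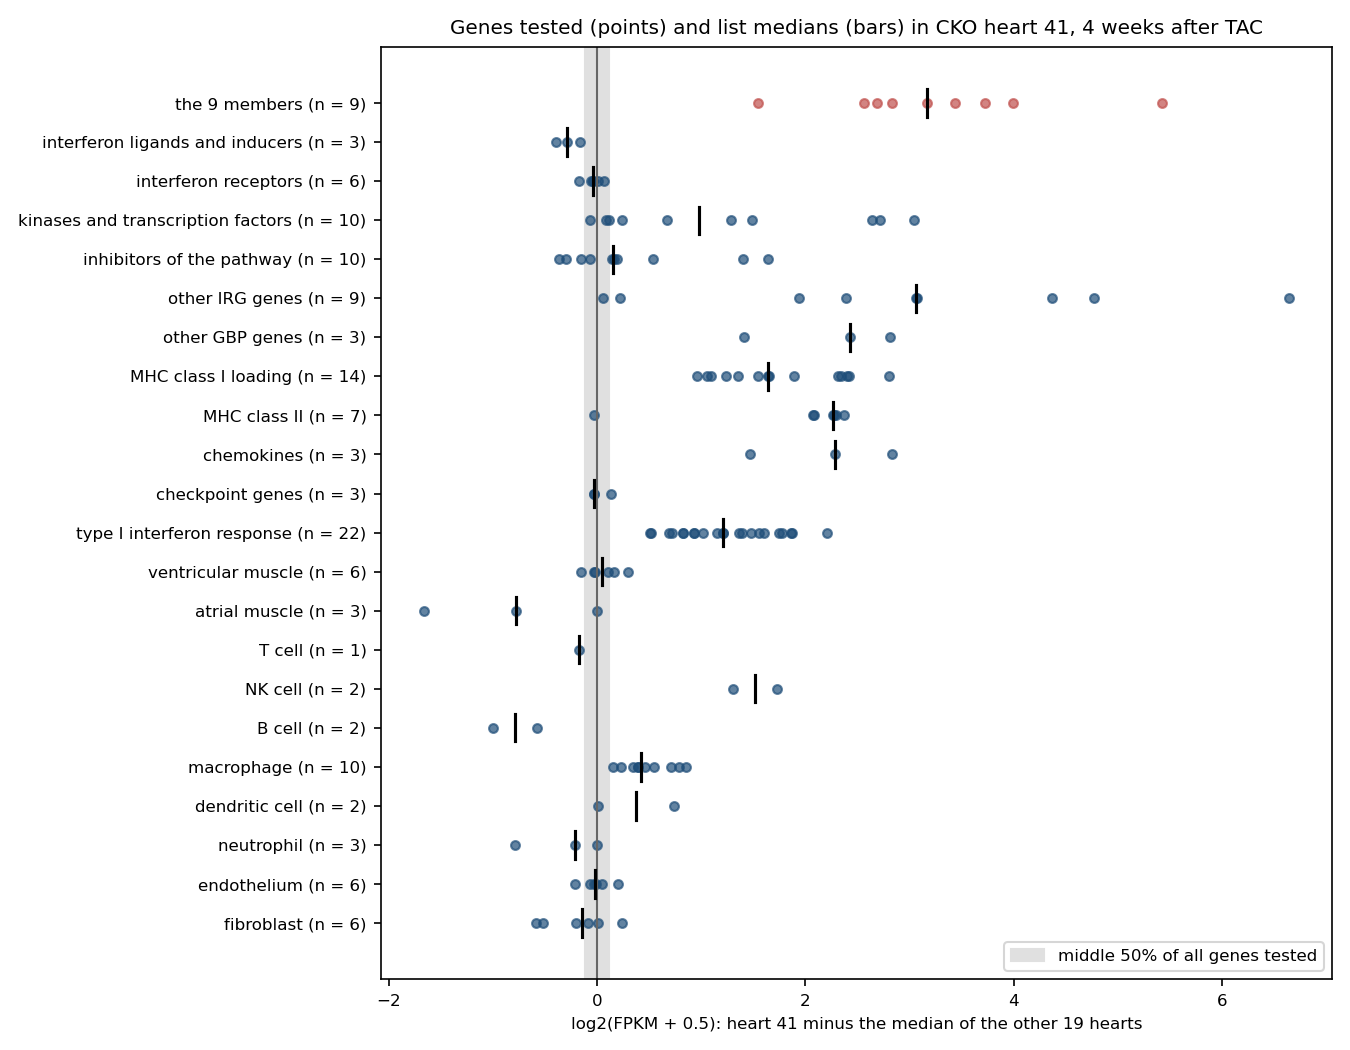
Difference of heart 41 from the median of the other 19 hearts, log2(FPKM + 0.5), for the tested genes of each list (points) and the list median (black bar); the grey band holds the middle 50% of all 12593 genes. The medians of the members, other IRG and GBP genes, MHC class I and II genes and chemokines lie to the right of the grey band. Within these lists the IRG gene 9930111J21Rik1 and the class II gene H2-Ob lie in the band. The medians of receptors, ventricular muscle and endothelium also lie in the band, and the 10 macrophage genes all lie above 0.

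Cell type markers were read in the same way, as summed FPKM; in bulk RNA, fewer cells of a type and less RNA per cell cannot be told apart. The 10 T cell markers summed to 10.9 in heart 41 and 6.92 to 26.1 in the others, rank 10 of 20, with Cd3d at 0. Only 1 of the 10, Thy1, passed the filter for low values, so this rank tells little about the other T cell markers. The 10 natural killer markers summed to 5.74 against 0.655 to 4.99, the highest of the 20, with Klrb1c and Klrd1 at 0, and Nkg7 (2.47 FPKM) and Gzma (2.03) making up most of the sum. The 10 macrophage markers summed to 467 against 205 to 596, rank 5 of 20. Dendritic cell markers ranked 4, B cell markers 19, neutrophil markers 12, endothelial markers 11 and fibroblast markers 15. The part of the natural killer and macrophage markers in the members' levels was not tested.

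The 19 other hearts were then examined on their own. Within them the highest value of a member was 1.99-fold to 4.01-fold above its lowest. Hearts 2 (control, TAC, 4 weeks) and 24 (CKO, end of tamoxifen) held the highest value in 4 and 3 of the 9 members. The mean of the 9 standardized levels was highest in hearts 2 (1.63 SD) and 24 (1.34 SD) and lowest in heart 7 (−1.16 SD), a control sham heart. High and low hearts occurred inside the same group: hearts 1 and 2 stood at −0.92 and 1.63 SD.

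**Figure D4:**
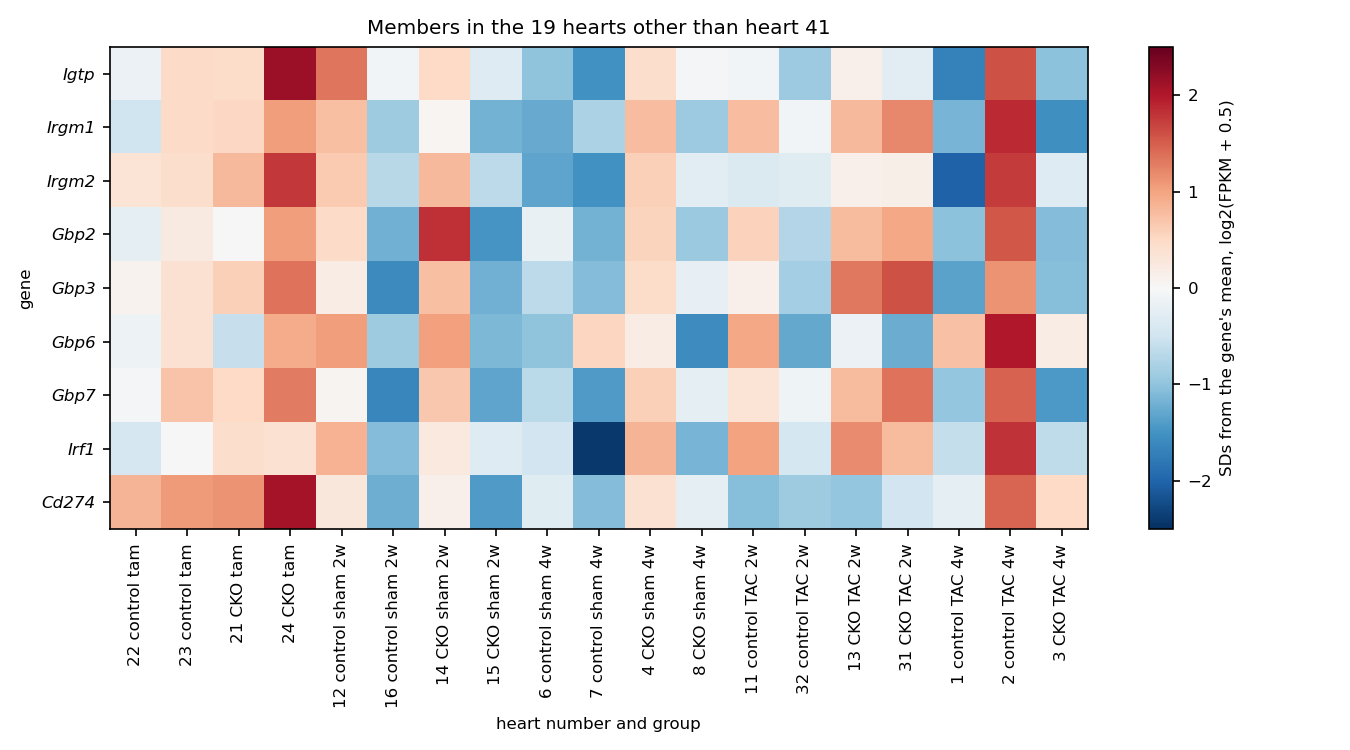
Level of each member in the 19 hearts other than heart 41, in SDs from the gene's mean on the log2(FPKM + 0.5) scale, hearts ordered by group. Columns are mostly of 1 colour, as in hearts 2 and 24 (red) and heart 15 (blue), and hearts 1 and 2 of 1 group differ in most genes.

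Igtp shows how far group and heart part ways. After the 2 hearts described above, its highest group was CKO at the end of tamoxifen (17.0 and 31.2 FPKM in hearts 21 and 24). Control sham at 2 weeks followed (23.3 and 14.0), then control TAC at 4 weeks (7.77 and 25.6), CKO sham at 4 weeks (16.9 and 14.2), and control hearts at the end of tamoxifen (13.7 and 17.1). The lowest groups were CKO sham at 2 weeks (17.3 and 12.8), CKO TAC at 2 weeks (15.1 and 13.0), control TAC at 2 weeks (14.0 and 10.3) and control sham at 4 weeks (9.96 and 8.29). Only the last step in this order was free of overlap between neighbours. The gap within control TAC at 4 weeks was 1.66 on the log2 scale, more than the 1.30 between the highest and lowest of the 9 group means.

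The same was true of 6 further members, for which the largest gap within a group exceeded the range of the 9 group means (Irgm1, Irgm2, Gbp2, Gbp3, Gbp6 and Gbp7). For Irf1 these were 0.68 and 0.68, and for Cd274 they were 0.66 and 1.00. In the order of group means, 6 to 8 of the 8 pairs of neighbours overlapped for each member. The lowest mean was that of control sham hearts at 4 weeks for 7 members, with Gbp6 lowest in CKO TAC hearts and Cd274 in control TAC hearts at 2 weeks.

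The members rose and fell together over the 19 hearts, given as a description over hearts that share library preparation and pipeline. The median Pearson r over 36 pairs of members was 0.70, from 0.30 (Gbp3 with Gbp6) to 0.95 (Gbp3 with Gbp7). With heart 41 the median was 0.92. Gbp6 was least like the rest, with a median r of 0.42 to the other 8, and Cd274 next, with 0.50. Igtp was most like Irgm2 (0.92), its neighbour with shared sequence.

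The genes whose level was most like the mean standardized level of the members were also sought among 12584 others, passing over clone-named and predicted genes (2 over the 20 hearts and 1 over 19). Over 20 hearts the 10 most like of the rest included Nlrc5 (r = 0.96), Iigp1, Tgtp1, Gbp4, Gbp5, Batf2, Parp14, Tgtp2 and H2-K1 (0.93). Over the 19 hearts they included Tgtp2 (0.92), Tgtp1, Gbp4, Gbp5, Tap1, Psmb9, H2-K1, Nlrc5 and H2-Q7 (0.85). With those passed over, the lists share 7 of 10 genes. The 20 hearts include the heart whose values chose the members, so likeness over them partly restates that choice. The 19 hearts are also among the 20, so the shared genes are a description and not independent agreement.

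Group differences were tested with limma over the 19 hearts, on log2(FPKM + 0.5), with Benjamini-Hochberg adjustment over 12593 genes and adjusted p under 0.05 as the threshold. The first question was whether TAC moved the members in controls. At 2 weeks 0 of 9 members passed, where 23.8% of all genes did, and 0 had an unadjusted p under 0.05. The members' differences ran from −0.57 (Igtp) to 0.32 (Gbp7), with a median of 0.09 against 0.00 for all genes. SEs were 0.25 to 0.43 with 2 hearts a group, and a member that missed the threshold is not thereby shown to be unmoved.

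At 4 weeks in controls 0 of 9 passed, where 12.4% of all genes did, and all 9 differences were above 0, with a median of 0.46. Irf1 had the only unadjusted p under 0.05. Its sham hearts had 16.9 and 11.4 FPKM and its TAC hearts 16.5 and 26.7, so the groups overlapped, and the difference was 0.57 ± 0.26 (SE; limma adjusted p = 0.16). For several members the direction rested on heart 2. Heart 1 was below both sham hearts for Igtp, Irgm2 and Gbp3 (Gbp3, 5.24 FPKM against 6.74 and 5.73). It lay between them for Irgm1, Gbp2, Gbp7 and Irf1, and above both for Gbp6 and Cd274. The differences of Igtp and Irgm2 changed sign with 1 heart. Without heart 2 they were lower after TAC, at −0.21 and −0.22, and without heart 1 both were higher and passed, at 1.44 (limma adjusted p = 0.040) and 1.14 (adjusted p = 0.021).

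In CKO hearts at 2 weeks 0 of 9 members passed after TAC, where 19.4% of all genes did, and 0 had an unadjusted p under 0.05. Gbp3 had the largest difference, 0.82 ± 0.39 (limma adjusted p = 0.15). The difference between the genotypes' responses at 2 weeks passed in 0 of 9 members, with 0.0397% of all genes and no unadjusted p under 0.05 among the members. No gene of the other IRG or GBP lists passed for TAC at 2 weeks in either genotype over the 19 hearts. Leaving out the hearts of Myl7 at 10 FPKM or more left 1 heart in each control group (32 and 12) and 1 CKO sham heart (15). The IRG medians then moved from −0.04 to 0.41 in CKO hearts and from 0.17 to −0.42 in controls. The GBP medians moved from 0.36 to 0.76 in CKO hearts and from 0.42 to 0.09 in controls. With lone hearts these are given as sizes only.

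The type I interferon list differed from the members in its counts. In CKO hearts 10 of 22 genes rose 2 weeks after TAC and none fell, where 10.4% of all genes rose. Among them were Irf7 (1.47 ± 0.40, limma adjusted p = 0.023), Ifit3 (1.24 ± 0.33, adjusted p = 0.022) and Ddx58, which encodes the RNA sensor RIG-I (0.64 ± 0.15, adjusted p = 0.011). In controls 3 of 22 rose (Ifit2, Ifit3 and I830012O16Rik), where 11.2% of all genes did, and the difference of the responses passed in none. Cell type markers moved in the same comparisons. In CKO hearts 4 of 10 macrophage genes rose (Csf1r, Cd68, C1qc and Ccr2), as did 3 of 6 endothelial genes, 4 of 6 fibroblast genes and Thy1, and 2 of 6 ventricular genes fell (Myh6 and Tnni3). In controls 5 of 6 fibroblast genes, 2 of 6 endothelial genes and Thy1 rose, and 3 of 6 ventricular genes fell. For macrophage genes 0 of 10 passed in controls, though the list median was 0.55 there and 0.65 in CKO hearts. Their part in the type I counts was not tested. These counts turned on single hearts. With 1 heart left out, the CKO count ran from 0 of 22 (without heart 31 or without sham heart 15) over 4 (without heart 13) to 15 (without sham heart 14), and the control count from 0 (without sham heart 16) to 5. With all 20 hearts in the fit each was 1 of 22. Without the hearts of Myl7 at 10 FPKM or more, the type I median moved from 0.87 to 1.27 in CKO hearts. In controls it moved from 0.60 to 0.11, and for the difference of the responses from 0.25 to 1.09. Lone hearts remained in that fit, so these are sizes only, and the part of atrial tissue was not tested.

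The next question was whether the members differed between genotypes. Controls carried no Cre, so the transgene and the Wnt5a deletion cannot be told apart. At the end of tamoxifen 0 of 9 passed between CKO and control hearts, where 0.0159% of genes did, with differences of 0.02 to 0.58, all above 0. Atrial Myl7 was 323 and 50.6 FPKM in these CKO hearts and 0 and 1.07 in the controls. Genotype and atrial tissue cannot be told apart there. In sham hearts, over both times, 0 of 9 passed, where 0.00794% of genes did, and 8 of 9 differences were above 0 (−0.10 to 0.36). No member had an unadjusted p under 0.05 in either comparison.

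In TAC hearts at 2 weeks 0 of 9 passed between CKO and control, where 0.524% of genes did. Gbp3 alone had an unadjusted p under 0.05. It was 8.90 and 6.26 FPKM in control hearts 11 and 32, and 13.6 and 14.9 in CKO hearts 13 and 31, with no overlap. The difference was 0.89 ± 0.39 (limma adjusted p = 0.35). Gbp7, its neighbour and the member most like it, was 6.02 and 5.34 in controls and 6.79 and 7.87 in CKO hearts, a difference of 0.34 ± 0.29 (adjusted p = 0.70).

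A comparison of sham hearts with hearts at the end of tamoxifen was added after the values were seen. It averages both genotypes and times, and time, age and operation cannot be told apart in it. All 9 members were lower in sham hearts, with a median of −0.39, and Cd274 passed (1 of 9, where 3.2% of all genes were called and 1.46% were called lower). Cd274 was 6.04 and 6.41 FPKM in control hearts 22 and 23 and 6.54 and 8.62 in CKO hearts 21 and 24 at the end of tamoxifen. In the 8 sham hearts it was 3.06, 4.34 and 5.26 as lowest, median and highest. The 2 sets did not overlap, and the difference was −0.66 ± 0.16 (limma adjusted p = 0.040).

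The means of Cd274 were 6.90 ± 1.17 FPKM (SD, n = 4) and 4.20 ± 0.873 (SD, n = 8). The call is close to the threshold: with all 20 hearts in the fit, Cd274 had an adjusted p of 0.33 in limma, and it passed in 13 of 28 alternatives (adjusted p from 0.028 to 0.33). Atrial Myl7 was 323 and 50.6 FPKM in hearts 21 and 24, listed at 0 in heart 22 and 1.07 in heart 23; its part in the Cd274 difference was not tested. The other 8 members overlapped between sham and tamoxifen hearts, and of these Gbp7 had an unadjusted p under 0.05 (−0.39 ± 0.18, adjusted p = 0.23). In the same comparison the macrophage gene Csf1r (1 of 10; −0.46 ± 0.10, limma adjusted p = 0.030) and 3 of 6 fibroblast genes (Pdgfra, Col1a2 and Col3a1) were lower in sham hearts, as was Tnf (−0.97 ± 0.16, adjusted p = 0.010). Their part in the members' levels was not tested. Ifit3 was the only gene of 22 in the type I list that passed, at −0.87 ± 0.20 (adjusted p = 0.039).

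**Figure D5:**
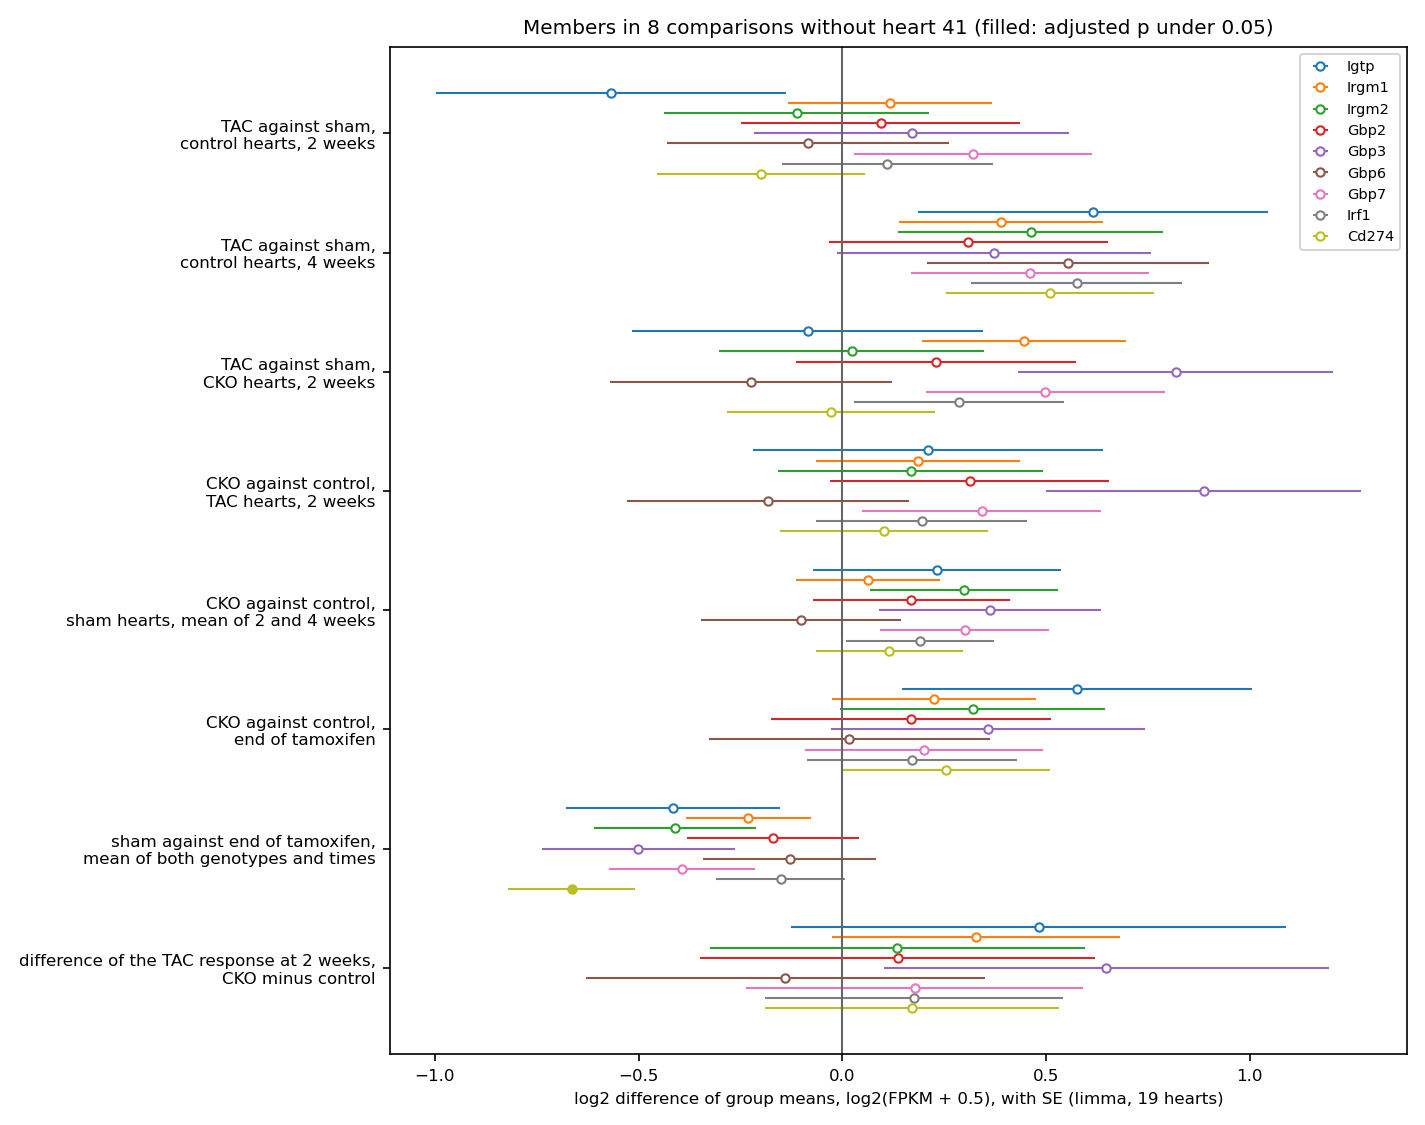
Differences of the members in 8 comparisons over 19 hearts, log2(FPKM + 0.5) with limma's SE; a filled point has an adjusted p under 0.05. Cd274 in sham against end of tamoxifen is the only filled point, and all 9 points of control TAC at 4 weeks lie above 0 without passing.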

How the data were processed

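RNA of 20 hearts was extracted (miRNeasy Mini kit) and made into TruSeq Stranded mRNA libraries, per the labels' protocols. The deposited values are FPKM, 1 table per heart. Per the submitters' processing notes, TopHat2 2.1.1 and Bowtie2 were used, with Cuffdiff 2.2.1 and build mm10. Fragment counts and absolute depth are not given in the sources used here, so no counting interval is given; the steps between low values gave the relative depth.

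From these values log2(FPKM + 0.5) was computed and a mean for each group was fitted in limma 3.58.1 (R 4.3.3, trend option, 9 residual degrees of freedom, median prior 3.77) without heart 41, over 12593 genes averaging 0.5 FPKM or more. A fit with all 20 hearts was the first alternative. Others were pseudocounts of 0.1 and 1, a filter at 3 FPKM or none, median-ratio and quantile scaling, a prior without trend, only the groups compared, fits without hearts of Myl7 at 10 FPKM or more, and each heart left out in turn.

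The members and lists were chosen with earlier results of these data known. In each list the 3 tested genes with the highest ratio of heart 41 to the median of the others are named, with genes that passed a test; genes are also named by likeness to the members. Some genes that these rules give are not reported here. Ifng, Ifnb1, Ifngr1, Ifngr2, Jak1, Jak2 and the genes left out by the filter were added after their values were seen. Of 186 list symbols 185 were found. Positions are from GENCODE M21 (mm10); 50-base stretches of its transcripts gave the shared sequence. Python 3.11.15, numpy 2.4.6, pandas 2.3.3 and matplotlib 3.10.9 were used.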

Additional observations from a re-analysis of the deposited data

How the results depend on the processing

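No paired analysis was possible because each replicate number occurs once in the labels. Under other scalings and pseudocounts heart 41 remained at least 2-fold above each other heart in 9 of 9 members. For TAC in controls at 4 weeks, the members' differences depended on which heart was left out. Igtp and Irgm2 turned to −0.21 and −0.22 without heart 2, and were 1.44 and 1.14 without heart 1. The remaining heart 1 was also below both sham hearts for Gbp3. For sham against end of tamoxifen 0 members passed with all 20 hearts, with no filter, with only the groups compared or with a prior without trend, and 0 to 1 with 1 heart left out; the cause was not tested. In the other comparisons no member passed under any alternative run. Counts over all genes moved more: from 2994 to as few as 1077 for TAC in controls at 2 weeks, from 1563 to 638 at 4 weeks, from 2448 to 421 in CKO hearts, and from 66 to between 8 and 116 for CKO against control after TAC. They were 403 and 49 to 491 for sham against end of tamoxifen, 5 and 1 to 10 for the difference of responses, 1 and 1 to 8 for genotype in sham hearts, and 2 and 2 to 7 at the end of tamoxifen. Without the hearts holding atrial Myl7 the end-of-tamoxifen comparisons could not be fitted. A fit without 1 heart assumes that the lone heart of its group varies like the others.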

Other observations

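Heart 41 was at least 2-fold below each other heart in 6 of 12593 genes (0.0476%). Heart 7 had as many, and the remaining hearts 0 to 3. Those of heart 41 included genes known from red blood cells. The haemoglobin gene Hba-a1 was 90.6 FPKM in heart 41 and 588 to 2185 in the other 19. Beta-s was 139 against 642 to 3176, Hbb-b2 30.1 against 134 to 614, and Alas2, which starts haem synthesis in red cells, 1.46 against 11.5 to 49.7. 2010002N04Rik was also in the set, at 2.52 against 5.79 to 10.8.

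Of the 53 genes at least 2-fold above each other heart in heart 41, 9 were the members, 33 were on the lists described and 11 were on none. Those 11 included Serpina3g, a protease inhibitor (11.8 FPKM against at most 2.17), the tryptophan tRNA synthetase Wars (85.1, which is 3.40-fold above the next heart), Trim21, a cytosolic antibody receptor (13.1 against at most 5.32), and Uba7, which activates Isg15 (32.9 against at most 13.9). Genes too low in the other hearts to pass the filter included Ido1, which degrades tryptophan (5.75 FPKM against at most 1.04), and Ubd, a ubiquitin-like modifier (8.77 against at most 0.347). Of the 44 genes of this set that are no members, 26 had a RefSeq promoter, and 7 of them (26.9%) held the ISRE core, against 3.14% of tested genes with a promoter; 6 (23.1%) held the GAS, against 7.26%.

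Heart 31 (CKO, TAC, 2 weeks) was the next heart by this count, with 33 genes at least 2-fold above each other heart, and the remaining 18 hearts had 0 to 6 each.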
